A study of Mus musculus with 16 samples.

Results

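The Notch genes described here are 4 receptors (Notch1, Notch2, Notch3 and Notch4), 3 ligands (Jag1, Jag2 and Dll1) and 3 target genes (Hes1, Hey1 and Heyl). They were taken by gene name from the deposited expression tables, and all 10 were found among 30385 gene entries. All 10 also passed the filter on low counts, which left 16835 entries for testing. RNA sequencing of polyadenylated RNA had been carried out in 16 libraries from 2 lines of immortalized mouse epicardial cells, isolated at E11.5 on a C57BL/6 SV129 mixed background. The wt line is Tgfbr3+/+:Immorto and the mt line is Tgfbr3-/-:Immorto. Both carry the Immorto T antigen, which drives growth at 33 °C and was inactivated at 37 °C during the experiment. Cells seeded at 200000 per well received vehicle, 250 pM TGFB1, 250 pM TGFB2 or 5 nM BMP2 for 72 h, with 2 libraries for each of the 8 groups. There was 1 line per genotype, so the genotype cannot be told apart from any other difference between the lines, and the labels do not say whether the replicates were separate cultures, so the p-values measure the spread between these libraries, which may be technical.

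Notch receptors sit in the cell membrane and are activated by Jagged or Delta ligands on a neighbouring cell. Binding leads to cleavage of the receptor by ADAM proteases and then by gamma-secretase, and the released intracellular part joins the DNA-binding protein RBPJ in the nucleus to switch on genes of the Hes and Hey families. In the heart, the epicardium gives rise to smooth muscle cells and pericytes of the coronary vessels and to fibroblasts. Notch3 is best known from vascular smooth muscle and pericytes, and TGFB ligands drive epicardial cells towards a mesenchymal and smooth muscle state.

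Library totals ran from 6410320 to 31813921 reads. Tgfbr3, the co-receptor that was targeted, stood at 85.7 ± 20.7 CPM (SD, n = 2) in wt vehicle and 16.4 ± 2.56 CPM in mt vehicle, where CPM is the TMM-scaled read count per 1000000 reads. All 18 epicardial marker genes looked for had reads in each of the 16 libraries, with a summed level of 4390 to 4970 CPM in the vehicle and BMP2 libraries and 1170 to 2190 CPM in the TGFB libraries. Not every gene of the list fell. Aldh1a2 read 17.0 and 20.4 CPM in wt vehicle and 24.0 to 56.5 CPM with TGFB in wt. In mt it read 5.63 and 7.05 CPM with vehicle and 15.4 to 21.0 CPM with TGFB. The 15 endothelial genes looked for summed to 37.1 to 98.6 CPM, with Pecam1, Cdh5 and Tie1 at most at 1.36 CPM. Kdr and Tek of that list read higher, at 13.8 to 62.3 CPM and 0.917 to 24.2 CPM, and both were lower with TGFB than with vehicle in each line. The 10 blood genes found summed to 14.7 and 14.9 CPM in wt vehicle and 34.1 to 56.9 CPM with TGFB in wt, and to 29.7 and 21.8 CPM in mt vehicle and 40.8 to 47.4 CPM with TGFB in mt, with Ptprc at most at 0.220 CPM. The 4 libraries of mt replicate 1 stood apart: the cardiomyocyte gene Myh6 read 14.6 to 28.4 CPM in them and at most 0.440 CPM in the other 12, and Actc1 read 8.44 to 13.7 CPM against at most 0.903 CPM. For the whole cardiomyocyte list of 19 genes the summed level was 147 to 306 CPM in those 4 libraries, 74.7 to 242 CPM in mt replicate 2, and 157 to 926 CPM in wt. Tnnt2 alone read 67.3 to 167 CPM, 50.7 to 220 CPM and 129 to 907 CPM in the same order. The part of these cardiomyocyte genes in the Notch results was not tested. In whole cultures, fewer cells of a type and less RNA per cell cannot be told apart.

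TGFB1 and TGFB2 raised the receptor Notch3 and the ligands Jag1 and Jag2 in the wt line, with the target Heyl rising from no reads. The target Hes1 also rose with TGFB2. In the mt line Hes1 and Heyl passed the unblocked test with both of these ligands. All of these unblocked calls other than those of Heyl in wt were lost without certain single libraries. Notch3, Jag1 and Jag2 in mt missed the threshold in the unblocked fit of all libraries and passed it with the replicate number as a term. Their estimates in mt were larger without mt vehicle replicate 1 and smaller without mt vehicle replicate 2. None of the 10 passed the unblocked test with BMP2, although Hes1 had its highest levels in the BMP2 groups. Differences were tested with edgeR's quasi-likelihood model, and p-values were adjusted by Benjamini and Hochberg over the 16835 genes at a threshold of 0.05. Log2 fold changes are given ± SE with n = 2 libraries a group, and "blocked" marks values from a second fit that also holds a term for the replicate number.

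**Figure D1:**
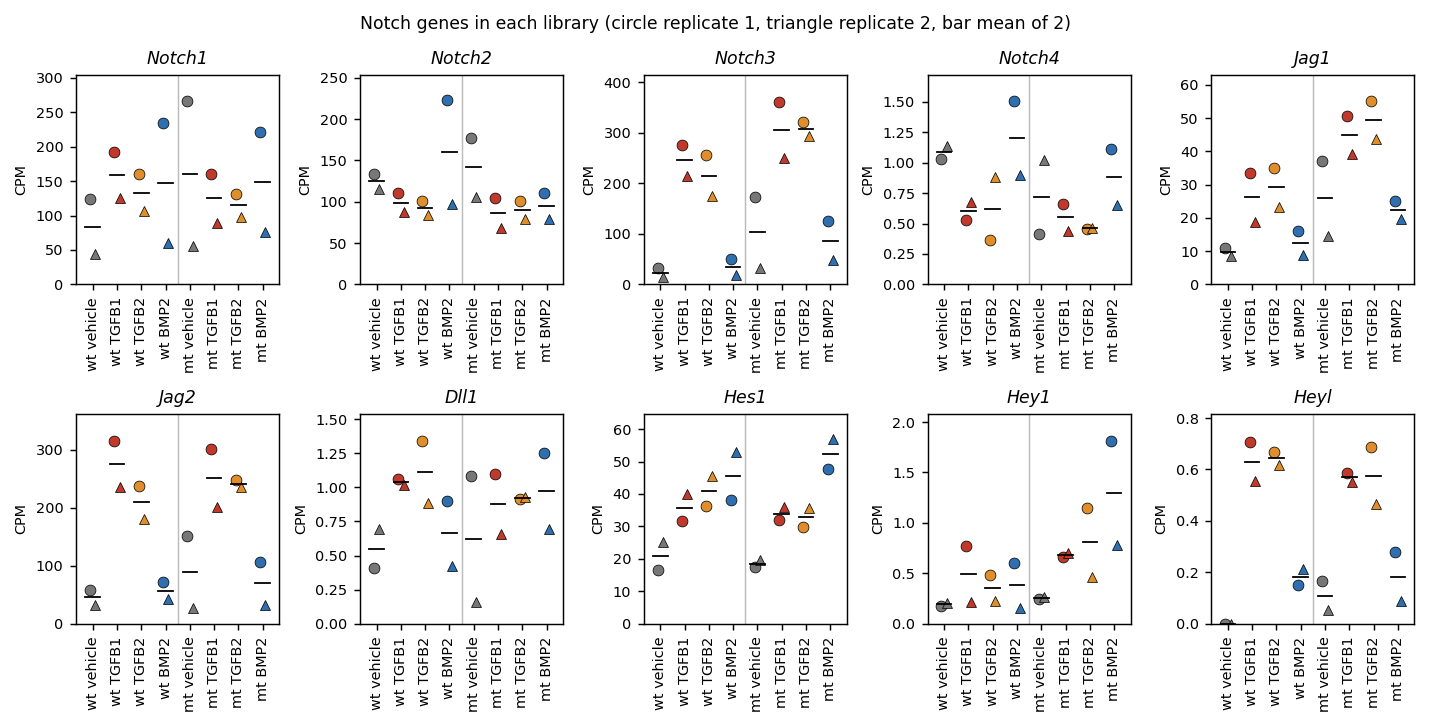
Level of each Notch gene in CPM (linear axis from 0, scaled separately for each gene) in the 8 groups of 2 libraries, with replicate 1 as a circle, replicate 2 as a triangle and a bar at the mean of the 2. Notch3, Jag1 and Jag2 lie higher in the TGFB1 and TGFB2 groups of both lines, and Hes1 is highest with BMP2.

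Notch3 was the receptor that moved most. It lies on the minus strand of chromosome 17 from 32257837 to 32303797 in build mm9. In the wt line it read 33.0 and 14.0 CPM with vehicle, for replicates 1 and 2, then 276 and 215 CPM with TGFB1, 255 and 175 CPM with TGFB2, and 49.8 and 19.0 CPM with BMP2. The lowest of the 4 TGFB libraries was thus far above the highest vehicle or BMP2 library. The fold change was 10.5 with TGFB1 (log2 3.39 ± 0.77, adjusted p = 0.0091, edgeR) and 9.17 with TGFB2 (log2 3.20 ± 0.76, adjusted p = 0.011, edgeR). Both calls were lost without wt vehicle replicate 2, where edgeR gave log2 2.89 with an adjusted p of 0.095 for TGFB1 and log2 2.70 with an adjusted p of 0.11 for TGFB2, and the TGFB2 call also without wt TGFB2 replicate 1 (edgeR, log2 2.89, adjusted p = 0.056). An antisense entry, BC048393, overlaps Notch3 and held 8.44% as many reads; with no strand setting given in the sources used here, reads of the 2 cannot be told apart.

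In the mt line, Notch3 read 173 and 32.6 CPM with vehicle, 360 and 249 CPM with TGFB1, 322 and 293 CPM with TGFB2, and 125 and 47.4 CPM with BMP2. The TGFB libraries again lay above both vehicle libraries, but vehicle replicate 1 stood well above replicate 2. The log2 fold change of 1.56 ± 0.72 with TGFB1 did not pass the test (adjusted p = 0.17, edgeR), and neither did that of 1.58 ± 0.72 with TGFB2 (adjusted p = 0.16). Blocked, the values were 1.84 ± 0.42 (adjusted p = 0.0049) and 1.92 ± 0.43 (adjusted p = 0.0037, edgeR), both past the threshold. Without mt vehicle replicate 1, the library with the high level, the log2 values were 3.22 and 3.23 (edgeR). Without mt vehicle replicate 2 they were 0.81 and 0.82, so the size in mt depended on which vehicle library was kept.

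The summed level of a list of 12 smooth muscle and pericyte genes, which does not hold Notch3 or its ligands, moved with these values. It was 1790 and 1040 CPM in wt vehicle for replicates 1 and 2, 6460 and 4200 CPM with TGFB1, 5880 and 4450 CPM with TGFB2, and 2160 and 1640 CPM with BMP2. In mt it was 3190 and 1030 CPM with vehicle, 5640 and 5190 CPM with TGFB1, 5370 and 5700 CPM with TGFB2, and 3160 and 2050 CPM with BMP2. The same mt vehicle library was high for this list and for Notch3. All 12 genes were found, and 9 had reads in each of the 16 libraries. Myh11 reached at most 3.24 CPM and the pericyte gene Rgs5 at most 0.367 CPM, so the sum rests on other, more abundant genes. The list holds Acta2, which is also among the further pathway loci counted below. The summed cardiomyocyte list was also higher with TGFB, at 671 to 926 CPM against 157 and 254 CPM with vehicle in wt and 195 to 306 CPM against 147 and 74.7 CPM in mt. In wt most of that sum was Tnnt2, at 649 to 907 CPM with TGFB against 129 and 235 CPM with vehicle. Myh6 was at most 0.304 CPM in wt. Any part of such cell states in the Notch results was not tested.

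Notch1, the broadly expressed receptor, lies on the minus strand of chromosome 2 from 26313421 to 26359342. It read 124 and 44.0 CPM in wt vehicle, 193 and 125 CPM with TGFB1, 160 and 106 CPM with TGFB2, and 234 and 60.6 CPM with BMP2. In the mt line it read 266 and 55.1 CPM with vehicle, 160 and 89.7 CPM with TGFB1, 131 and 98.5 CPM with TGFB2, and 222 and 75.5 CPM with BMP2. Replicate 1 was the higher library in all 8 groups, and the ranges of neighbouring groups overlapped throughout. No ligand changed it in the unblocked test. Its log2 value for TGFB1 in wt was 0.92 ± 0.79 (adjusted p = 0.51), and blocked 1.09 ± 0.39 (adjusted p = 0.043, edgeR). An antisense entry, AK075572, overlaps Notch1 and held 13.3% as many reads (8.19% to 21.5% by library). A same-strand entry named notch1 held 5.04% as many. Reads of overlapping entries cannot be told apart here either.

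Notch2, on the plus strand of chromosome 3 from 97817460 to 97954290, is a receptor that, like Notch1, is found in many tissues. It read 134 and 115 CPM in wt vehicle, 110 and 87.6 CPM with TGFB1, 101 and 84.3 CPM with TGFB2, and 223 and 97.2 CPM with BMP2. The mt values were 177 and 106 CPM, 104 and 68.2 CPM, 101 and 79.3 CPM, and 111 and 79.1 CPM in the same order. In both lines all 4 TGFB libraries lay below both vehicle libraries, and the level was lower with TGFB in 8 of 8 same-numbered pairs, by log2 -0.80 to -0.28. The change did not pass the unblocked test in either line; in mt the log2 value was -0.72 ± 0.38 with TGFB1 (adjusted p = 0.24, blocked 0.020) and -0.65 ± 0.38 with TGFB2 (adjusted p = 0.29, blocked 0.038, edgeR).

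Notch4, a receptor of endothelial cells, lies on the plus strand of chromosome 17 from 34701239 to 34725488 and was scarcely detected. It held 5 to 33 reads a library, from 0.364 to 1.51 CPM, and passed no test. Its reads were identical in 16 of 16 libraries to those of an entry named IAP at the same locus, so the reads cannot be assigned to Notch4 alone.

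Per kilobase of transcript, Notch3 held the largest receptor share in all 8 TGFB libraries and in no vehicle or BMP2 library. With vehicle the largest share was that of Notch1 in replicate 1 of each line (43.4% in wt and 42.1% in mt) and that of Notch2 in replicate 2 (62.6% and 50.2%). In wt vehicle, Notch3 made up 13.7% and 9.97% of the summed CPM per kilobase of the 4 receptors, against 52.7% and 55.4% with TGFB1 and 54.6% and 53.0% with TGFB2. In the mt line its share was 32.5% and 20.2% with vehicle, 62.6% and 65.9% with TGFB1, and 63.0% and 67.0% with TGFB2. With BMP2 the share was 11.9% and 13.1% in wt and 31.4% and 27.5% in mt. Shares of the 2 replicates lay close together with TGFB, although the Notch3 level itself differed between them. Lengths were those of the longest coding transcript of each gene in GENCODE M21, and no test was run on the shares.

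**Figure D2:**
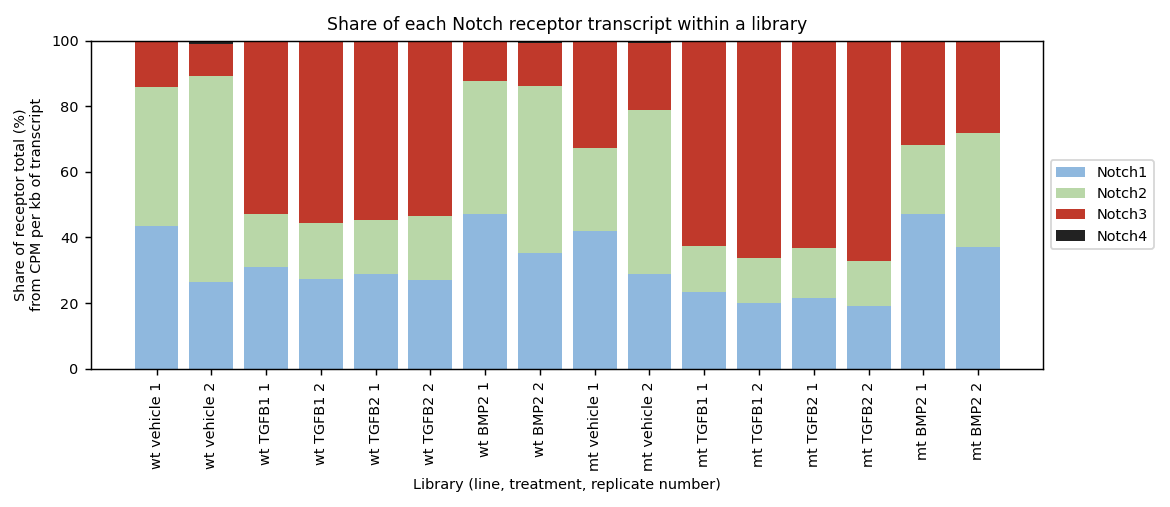
Share of each of the 4 Notch receptors in the summed receptor level of a library, in percent of CPM per kilobase of transcript, for the 16 libraries by line, treatment and replicate number. Notch3 takes 52.7% to 55.4% in the wt TGFB libraries and 62.6% to 67.0% in the mt ones, and 9.97% to 32.5% in the vehicle libraries.

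Among the ligands, Jag2 had the highest level and the widest movement. It lies on the minus strand of chromosome 12 from 114146800 to 114167706. In wt it read 59.0 and 33.1 CPM with vehicle, 315 and 236 CPM with TGFB1, 238 and 181 CPM with TGFB2, and 71.2 and 43.4 CPM with BMP2. The TGFB libraries lay above all vehicle and BMP2 libraries. Its fold change was 5.99 with TGFB1 (log2 2.58 ± 0.72, adjusted p = 0.026, blocked 0.00068) and 4.56 with TGFB2 (log2 2.19 ± 0.71, adjusted p = 0.048, blocked 0.0018, edgeR). Leaving out any 1 of the 4 libraries compared ended each of these calls, with edgeR adjusted p from 0.058 to 0.18 for TGFB1 and from 0.097 to 0.25 for TGFB2; the libraries are both wt vehicle libraries and both of the TGFB group.

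In mt, Jag2 read 152 and 26.4 CPM with vehicle, 301 and 202 CPM with TGFB1, 248 and 236 CPM with TGFB2, and 107 and 31.9 CPM with BMP2. Vehicle replicate 1 was the high library here too, as for Notch3. The log2 value was 1.49 ± 0.69 with TGFB1 (adjusted p = 0.17, blocked 0.010) and 1.44 ± 0.69 with TGFB2 (adjusted p = 0.19, blocked 0.0095, edgeR). Without mt vehicle replicate 1 it was 3.25 and 3.19, and without mt vehicle replicate 2 it was 0.72 and 0.66 (edgeR).

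Jag1, on the minus strand of chromosome 2 from 136907193 to 136942067, is the Jagged ligand best known from arterial smooth muscle differentiation. In wt it read 10.8 and 8.39 CPM with vehicle, 33.6 and 18.8 CPM with TGFB1, 35.0 and 23.4 CPM with TGFB2, and 16.1 and 8.90 CPM with BMP2. It rose 2.72-fold with TGFB1 (log2 1.44 ± 0.45, adjusted p = 0.041, blocked 0.00035) and 3.04-fold with TGFB2 (log2 1.60 ± 0.45, adjusted p = 0.025, blocked 0.00012, edgeR). The calls were lost without either wt vehicle library or without replicate 1 of the TGFB group, where the edgeR adjusted p was 0.11 to 0.29 for TGFB1 and 0.082 to 0.16 for TGFB2, and the lowest log2 values were 0.92 and 1.28.

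In mt, Jag1 read 37.2 and 14.5 CPM with vehicle, 50.7 and 39.1 CPM with TGFB1, 55.0 and 43.6 CPM with TGFB2, and 25.0 and 19.7 CPM with BMP2. The log2 value was 0.80 ± 0.44 with TGFB1 (adjusted p = 0.25, blocked 0.0078) and 0.93 ± 0.44 with TGFB2 (adjusted p = 0.18, blocked 0.0029, edgeR). Without mt vehicle replicate 1 it was 1.62 and 1.75, and without mt vehicle replicate 2 it was 0.27 and 0.40 (edgeR). Per kilobase of transcript, Jag2 exceeded Jag1 in every group mean, with 9.02 against 1.71 CPM per kilobase in wt vehicle and 54.0 against 4.67 in wt TGFB1.

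Dll1, the Delta-type ligand on the minus strand of chromosome 17 from 15504317 to 15512787, held only 3 to 33 reads a library. Its level ran from 0.161 to 1.34 CPM and no comparison passed the test. A change of the size estimated, log2 0.89 ± 0.64 with TGFB1 in wt (adjusted p = 0.40, edgeR), was not detectable at this depth.

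The 3 genes that rose together with TGFB are shown with the 250 bases before their annotated start, from RefSeq on GRCm38.p6, where capitals mark each match to the SMAD motif CAGAC or its reverse complement GTCTG. Of the 10 genes, 7 had a window in this table; Hes1, Hey1 and Heyl did not match. The windows are on the minus strand, at chr17:32166891-32167140 for Notch3, chr2:137116521-137116770 for Jag1 and chr12:112929496-112929745 for Jag2.
Notch3: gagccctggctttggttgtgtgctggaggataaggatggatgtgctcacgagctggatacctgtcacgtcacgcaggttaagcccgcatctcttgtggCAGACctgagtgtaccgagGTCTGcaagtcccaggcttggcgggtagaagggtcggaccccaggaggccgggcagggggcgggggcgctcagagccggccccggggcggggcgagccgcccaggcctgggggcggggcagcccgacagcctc
Jag1: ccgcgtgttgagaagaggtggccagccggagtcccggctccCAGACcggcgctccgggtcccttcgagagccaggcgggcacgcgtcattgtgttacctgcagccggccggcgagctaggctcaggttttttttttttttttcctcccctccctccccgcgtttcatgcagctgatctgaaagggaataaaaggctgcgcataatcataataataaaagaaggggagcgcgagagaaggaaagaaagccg
Jag2: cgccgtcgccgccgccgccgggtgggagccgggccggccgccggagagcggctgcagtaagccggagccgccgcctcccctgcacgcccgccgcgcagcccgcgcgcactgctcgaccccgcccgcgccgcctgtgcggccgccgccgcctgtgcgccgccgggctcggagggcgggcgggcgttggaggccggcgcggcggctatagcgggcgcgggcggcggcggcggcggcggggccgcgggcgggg

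Notch3 has 2 matches, which begin 152 and 133 bases before the start and lie on opposite strands. Jag1 has 1 match, at 209 bases, and Jag2 has none in a window that is 87.2% G or C, against 68.8% for Notch3 and 57.2% for Jag1. The motif occurs in 42.2% of all 32851 windows of this length, so a match is common. The RBPJ motif TGGGAA or TTCCCA, searched on both strands, occurs in 21.6% of windows and in none of those of the 7 matched genes. These matches describe the letters of a short window only.

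Of the target genes, Hes1, a transcriptional repressor and the most widely used Notch readout, was the one with a sizeable level. It lies on the plus strand of chromosome 16 from 30065442 to 30067882. In wt it read 16.5 and 25.2 CPM with vehicle, 31.6 and 40.0 CPM with TGFB1, 36.4 and 45.6 CPM with TGFB2, and 38.1 and 52.8 CPM with BMP2. In mt it read 17.6 and 19.5 CPM, 31.9 and 36.0 CPM, 29.8 and 35.8 CPM, and 47.7 and 56.8 CPM in the same order. Every TGFB and BMP2 library lay above both vehicle libraries of its line, and in mt both BMP2 libraries lay above all TGFB libraries.

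With TGFB2 in wt, Hes1 rose 1.97-fold (log2 0.98 ± 0.26, adjusted p = 0.018, edgeR), a call lost without wt TGFB2 replicate 2 (0.80, adjusted p = 0.14) or wt vehicle replicate 1 (0.70, adjusted p = 0.17). With TGFB1 in wt its log2 value was 0.78 ± 0.26 (adjusted p = 0.052, blocked 0.0013, edgeR). In mt it rose 1.83-fold with TGFB1 (log2 0.87 ± 0.26, adjusted p = 0.038) and 1.76-fold with TGFB2 (log2 0.82 ± 0.26, adjusted p = 0.047, edgeR). Without any 1 of the 4 libraries compared, mt vehicle or TGFB, these mt calls were lost, with edgeR adjusted p from 0.077 to 0.23 and from 0.091 to 0.26.

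With BMP2, Hes1 had the log2 value 1.13 ± 0.26 in wt (adjusted p = 0.91, blocked 0.064, edgeR; DESeq2 0.040) and 1.49 ± 0.26 in mt (adjusted p = 0.090, blocked 0.0011, edgeR; DESeq2 7e-05). It was higher with BMP2 in 4 of 4 same-numbered pairs, by log2 1.07 to 1.54, a narrow spread. The unadjusted edgeR p was 0.00092 in wt and 0.00010 in mt, where few or no genes of the whole table passed the adjustment.

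Heyl, a Hey-family repressor known as a target of Notch3 in smooth muscle, lies on the plus strand of chromosome 4 from 122910798 to 122927113. It held 0 reads in both wt vehicle libraries, 12 and 18 reads with TGFB1, 11 and 14 reads with TGFB2, and 1 and 4 reads with BMP2. The TGFB groups were therefore at least 10.3-fold (TGFB1) and at least 10.9-fold (TGFB2) higher than a floor of 3 reads over the vehicle group, and the edgeR adjusted p was 0.00088 and 0.00080. In mt the reads were 2 and 1 with vehicle, 8 and 15 for TGFB1, 9 and 13 for TGFB2, and 2 and 2 for BMP2. The ratio to vehicle was 5.75 (95% counting interval 1.74 to 29.9; edgeR adjusted p = 0.034) with TGFB1 and 5.47 (1.64 to 28.6; edgeR adjusted p = 0.033) with TGFB2. The wt calls held without each library in turn, whereas each mt call was lost without mt vehicle replicate 2 or either library of its TGFB group, with edgeR adjusted p from 0.089 to 0.21 and from 0.083 to 0.21. Even at its highest, Heyl reached only 0.707 CPM. It passed the low-count filter through TGFB libraries alone: 6 of them reached the filter's level of 0.548 CPM, and no vehicle or BMP2 library did. Its place among the tested genes therefore depends on the groups where it is high. Without the filter its edgeR adjusted p was 0.00027 and 0.00024 in wt and 0.086 and 0.090 in mt. DESeq2 gave an adjusted p of 0.00062 and 0.00058 in wt and of 0.09 and 0.091 in mt, where it made no call.

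Hey1, the Hey-family repressor on the minus strand of chromosome 3 from 8663358 to 8667038, held 3 to 19 reads a library. Its mean level was 0.194 CPM in wt vehicle and 1.30 ± 0.723 CPM (SD, n = 2) in mt BMP2, the highest group, whose range overlapped that of the next. It was higher with TGFB in 8 of 8 same-numbered pairs, by log2 0.05 to 2.21, but no ligand comparison passed the test. No vehicle library reached the filter's level for it, against 4 TGFB and 3 BMP2 libraries.

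**Figure D3:**
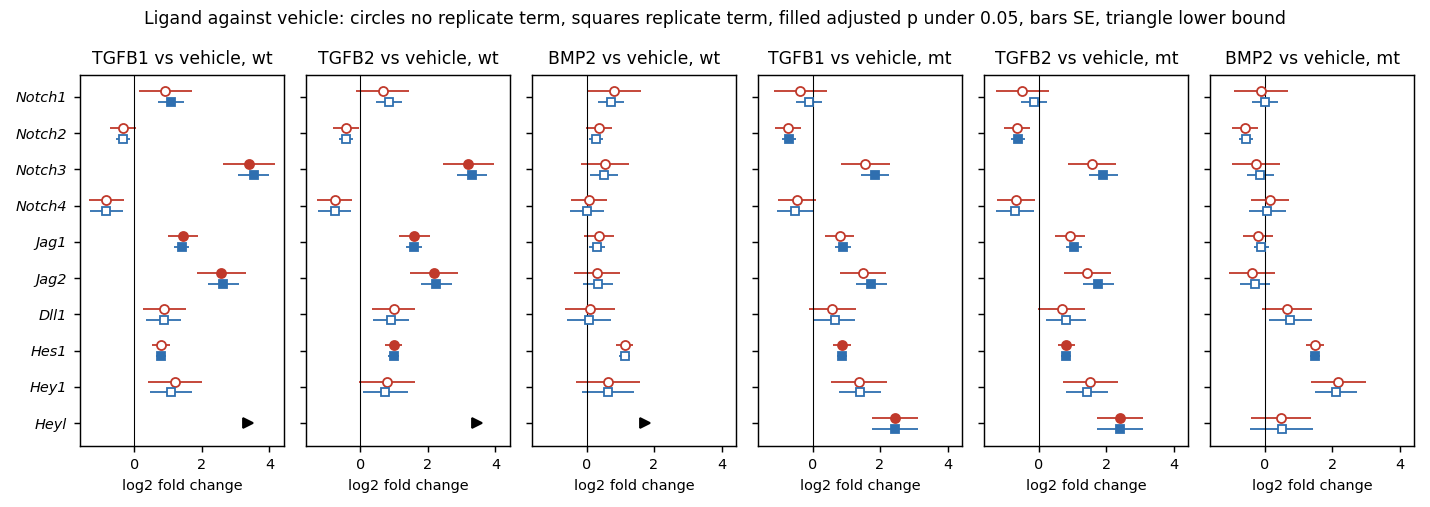
Log2 fold change of each ligand group against vehicle for the 10 Notch genes, with SE bars, in 6 panels by ligand and line; circles are the test without and squares the test with a replicate term, filled where the adjusted p is under 0.05. Black triangles give the lower bound for Heyl in wt, where vehicle held 0 reads. Notch3, Jag1, Jag2 and Heyl lie to the right in the TGFB panels, and Hes1 lies to the right in all 6.

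Counted over the 10 genes, 4 passed the test with TGFB1 in wt (Heyl, Jag1, Jag2 and Notch3), beside 19.0% of all genes tested (10.8% higher and 8.21% lower), and blocked 6, with Hes1 and Notch1, beside 33.4%. With TGFB2 in wt 5 passed, the same 4 and Hes1, beside 20.1% of all genes (11.1% higher and 9.03% lower), and blocked 5 beside 34.7%. In mt, 2 passed with TGFB1 (Hes1 and Heyl) beside 16.4% of all genes (7.97% higher and 8.45% lower). With TGFB2 the same 2 passed beside 17.4% (8.17% higher and 9.25% lower). Blocked, 6 passed with each, namely these 2 with Jag1, Jag2 and Notch3 higher and Notch2 lower, beside 32.5% and 33.5%. Without the 4 mt replicate 1 libraries, which leaves 1 library in each mt group that is assumed to vary like the wt groups, 2 genes passed with each ligand in mt, beside 9.01% of all genes for TGFB1 and 9.18% for TGFB2, but these were Notch3 and Jag2. There Notch3 had log2 2.93 with TGFB1 (adjusted p = 0.048) and 3.17 with TGFB2 (adjusted p = 0.037), and Jag2 had 2.93 (adjusted p = 0.013) and 3.16 (adjusted p = 0.010, edgeR). Hes1 kept its size, at 0.88 and 0.87, but had an edgeR adjusted p of 0.24 with each, and Heyl had 0.12 and 0.15. All calls other than Notch2 were rises. Heyl, called in each unblocked and blocked count of all libraries above, was tested only because it was high with TGFB. In the unblocked fit of all libraries the other 9 genes gave 3 and 4 calls in wt and 1 and 1 in mt. The median log2 value of the 10 genes was 1.06 and 0.98 in wt and 0.83 and 0.88 in mt for TGFB1 and TGFB2, beside a median between -0.01 and 0.02 over all genes.

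With BMP2, 0 of the 10 genes passed edgeR's test in wt, beside 0% of all genes, with 2 at an unadjusted p under 0.05 and 1 called by DESeq2 (Hes1). Those 2 were Hes1 and Heyl, the latter on 5 reads with BMP2 against 0 with vehicle. In mt 0 passed edgeR's test, beside 0.0416% of all genes (0.0297% higher and 0.0119% lower), with 2 at an unadjusted p under 0.05 and 1 called by DESeq2 (Hes1). Blocked, 0 passed in wt beside 0%, and 1 in mt (Hes1) beside 0.232% (0.196% higher and 0.0356% lower). The 95% interval of the Notch3 change with BMP2 was 0.495 to 4.27-fold in wt and 0.288 to 2.41-fold in mt, so a moderate change either way was not detectable.

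No difference between the TGFB ligands passed the test. Between TGFB2 and TGFB1, 0 of 10 genes passed edgeR's test in wt and 0 in mt, beside 0% of all genes in each line, with 0 of the 10 at an unadjusted p under 0.05, 0 called in the blocked fit and 0 by DESeq2. For Notch3 the ratio of TGFB2 to TGFB1 was 0.877 in wt with a 95% interval of 0.305 to 2.52, and 1.01 in mt with 0.352 to 2.90. For Hes1 it was 1.15 (0.780 to 1.68) in wt and 0.964 (0.656 to 1.42) in mt, the narrowest of the 10 in each line.

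Set against BMP2, the mean of the 2 TGFB groups in wt was higher for Notch3 (6.73-fold, log2 2.75 ± 0.71, adjusted p = 0.014) and Jag2 (4.21-fold, log2 2.07 ± 0.65, adjusted p = 0.037, edgeR). These 2 of 10 stand beside 24.4% of all genes; blocked, 5 passed (with Jag1 and Heyl higher and Notch2 lower) beside 40.7%. The Notch3 call was lost without wt BMP2 replicate 2 (edgeR, log2 2.21, adjusted p = 0.11), and the Jag2 call without any 1 of the 6 libraries (edgeR adjusted p 0.055 to 0.19). In mt 0 passed, beside 18.1%, with 5 at an unadjusted p under 0.05, 4 called by DESeq2, and blocked 5 beside 32.9%. Those 5 were Notch3, Jag1, Jag2 and Heyl, higher with TGFB, and Hes1, lower with TGFB than with BMP2 (log2 -0.65 ± 0.22, adjusted p = 0.059, blocked 0.0020, edgeR). Heyl passed the low-count filter through TGFB libraries alone, so its blocked calls over BMP2 in both lines depend on the groups where it is high.

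Within same-numbered pairs of libraries, the TGFB values pointed 1 way for most of these genes. Notch3, Jag1, Jag2 and Hes1 were higher with TGFB in 8 of 8 pairs, over 2 lines, 2 ligands and 2 replicate numbers that share the vehicle libraries. For Notch3 in mt, replicate 1 gave log2 1.05 and replicate 2 gave 2.93 with TGFB1, and 0.89 and 3.17 with TGFB2. For Jag2 in mt the same values were 0.98 and 2.94, and 0.70 and 3.16. Hes1 differed far less between pairs, from 0.67 to 1.14.

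**Figure D4:**
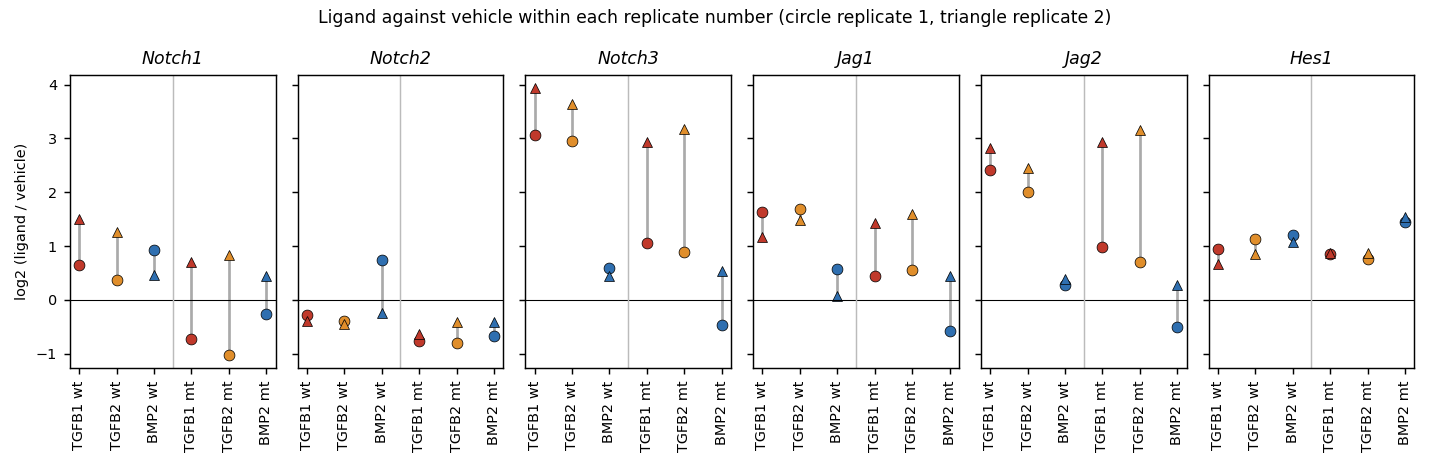
Log2 ratio of ligand to vehicle within replicate 1 (circle) and within replicate 2 (triangle) for 6 Notch genes, by ligand and line. Notch3, Jag1, Jag2 and Hes1 lie above 0 in all TGFB pairs and Notch2 below 0, and the 2 mt pairs of Notch3 and Jag2 lie far apart.

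The replicate number itself moved several of the genes. Averaged over the 8 groups, replicate 1 exceeded replicate 2 by log2 1.22 for Notch1, 1.00 for Notch3, 0.91 for Jag2, 0.63 for Jag1 and 0.52 for Notch2, and each was higher in replicate 1 in 8 of 8 groups. The 5th to 95th percentile of this difference over all genes was -0.81 to 0.71, and Notch1, Notch3 and Jag2 lay above it. Hey1, with few reads, lay at its edge with 0.71 and was higher in replicate 1 in 5 of 8 groups. Hes1 went the other way, with -0.32, and was lower in replicate 1 in all 8 groups. The blocked fit removes 1 average difference per gene over the 8 groups. The difference was not the same in all groups, at log2 0.13 to 2.41 for Notch3, 0.07 to 2.53 for Jag2 and 0.33 to 1.35 for Jag1. What a group departs from the average stays in the blocked values.

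The lines were compared in vehicle and over all 4 treatments. In vehicle, 0 of 10 genes passed edgeR's test, beside 3.58% of all genes, with 3 at an unadjusted p under 0.05. These were Jag1, Notch3 and Heyl, the last on 3 reads in mt against 0 in wt. DESeq2 and the blocked fit called the same 2, Jag1 and Notch3, the latter beside 10.3%. For Notch3 in vehicle the log2 value was 2.13 ± 0.73 (adjusted p = 0.16, blocked 0.0099) and for Jag1 1.42 ± 0.45 (adjusted p = 0.13, blocked 0.0024, edgeR). Both were higher in mt in each same-numbered vehicle pair, Notch3 by log2 2.40 and 1.22 and Jag1 by 1.78 and 0.79. Without mt vehicle replicate 1 the values were 0.47 for Notch3 (adjusted p = 0.90) and 0.59 for Jag1 (adjusted p = 0.80, edgeR), and without mt vehicle replicate 2 both passed, at 2.88 (adjusted p = 0.023) and 1.95 (adjusted p = 0.020, edgeR).

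Averaged over the treatments, Jag1 was 1.94-fold higher in mt (log2 0.95 ± 0.22, adjusted p = 0.011, edgeR), the 1 gene of 10 called, beside 18.0% of all genes. It was higher in mt in 8 of 8 same-numbered pairs, by log2 0.59 to 1.78. Without the 4 mt replicate 1 libraries, those with Myh6 and Actc1 reads, it was not called (edgeR, log2 0.61, adjusted p = 0.097). Blocked, 3 passed beside 34.1%: Jag1, Notch3 (unblocked log2 1.07 ± 0.36, adjusted p = 0.057, blocked 0.0018) and Hey1 (unblocked 1.02 ± 0.41, adjusted p = 0.11, blocked 0.020, edgeR). Without the 4 mt replicate 1 libraries the log2 value was 0.36 for Notch3 (adjusted p = 0.43) and 0.71 for Hey1 (adjusted p = 0.35, edgeR). Notch3 was higher in mt in 8 of 8 pairs and Hey1 in 7 of 8, whereas Jag2 and Hes1 were higher in 4 of 8 each.

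The line difference in the response to a ligand was tested as an interaction. None of the 10 genes passed with TGFB1 (0 genes beside 0.0119% of all genes, 1 at an unadjusted p under 0.05), TGFB2 (0 beside 0.0475%, 1 unadjusted) or BMP2 (0 beside 0%, 1 unadjusted), while the blocked edgeR fit and DESeq2 called 0 in each. The gene at an unadjusted p under 0.05 was Heyl each time, which held 0 reads in wt vehicle. For Notch3 the mt minus wt value of the TGFB1 response was log2 -1.82 ± 1.00 (adjusted p = 0.91, edgeR), with a 95% interval of -4.00 to 0.36. Blocked, it was -1.69 ± 0.58, with an interval of -2.95 to -0.44 before adjustment and an adjusted p of 0.23 (edgeR). It depended most on mt vehicle replicate 1, without which it was -0.16, against -2.57 without mt vehicle replicate 2 and -0.45 without the 4 mt replicate 1 libraries. For Hes1 it was 0.09 ± 0.36, with -0.70 to 0.88.

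The pattern of Notch3 over the 8 group means of log2 CPM was most like that of mKIAA1112 (Pearson r = 0.999), AI414108 (0.998) and St3gal2 (0.998), among 12401 genes whose mean reached 5 CPM or more. For Jag2 the closest were Arhgef19 (0.998), Espn (0.995) and Bap1 (0.995), and for Heyl they were Larp1b (0.992), Mkl1 (0.989) and Fblim1 (0.988). Such likeness was common: 743 genes had r above 0.95 with Notch3, 546 with Jag2 and 171 with Heyl. Across the 8 groups Notch3 and Jag2 had r = 0.95, and Notch3 and Hes1 had 0.25, as descriptions that share the same libraries.

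The wider pathway was followed through 71 further loci, of which 62 passed the low-count filter. With TGFB1 in wt 7 were higher (11.3%, beside 10.8% of all genes) and 8 lower (12.9%, beside 8.21%), and with TGFB2 8 were higher (12.9%, beside 11.1%) and 10 lower (16.1%, beside 9.03%). In mt 4 were higher (6.45%, beside 7.97%) and 9 lower (14.5%, beside 8.45%) with TGFB1, and 5 were higher (8.06%, beside 8.17%) and 10 lower (16.1%, beside 9.25%) with TGFB2. The shares of higher calls thus lay near those of all genes. Blocked, 11 were higher in each of the 4 comparisons (17.7%, beside 15.7% to 18.4% of all genes), and 11, 14, 19 and 17 were lower (17.7% to 30.6%, beside 15.6% to 16.9%). With BMP2 0 passed edgeR's test in wt (blocked 0, DESeq2 0, and 6 at an unadjusted p under 0.05), and in mt 0 were higher and 1 lower. The list's median log2 value lay between -0.11 and 0.09 in all 6 ligand comparisons, beside -0.01 to 0.02 over all genes.

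Among other ligands, Dlk1, a Delta-like protein that lacks the domain by which Delta ligands bind Notch and is reported to inhibit signalling, fell in wt, with a log2 value of -5.19 for TGFB1 and -5.26 for TGFB2 (SE 0.44 for each; adjusted p = 4.5e-05 and 3.4e-05, edgeR). In mt the values were -4.89 and -5.33 (adjusted p = 5e-05 and 2.6e-05, edgeR). Its level went from 1770 CPM in wt vehicle to 48.6 CPM with TGFB1. Lfng, the fringe glycosyltransferase that alters which ligands a receptor answers to, fell in both lines, from 31.8 and 26.5 CPM to 13.4 and 12.0 CPM with TGFB1 in wt and from 33.9 and 44.1 CPM to 8.52 and 6.45 CPM in mt. The mt log2 value was -2.39 ± 0.25 (adjusted p = 0.00012) and the wt value -1.20 ± 0.24 (adjusted p = 0.0047, edgeR), while the interaction did not pass (adjusted p = 0.38, edgeR). The wt value with TGFB1 reached an adjusted p of 0.050 without wt TGFB1 replicate 2.

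Of the proteases, Psen2, a catalytic subunit of gamma-secretase, fell from 92.3 ± 6.69 CPM in wt vehicle to 14.5 ± 3.06 CPM with TGFB1 and 12.8 ± 0.973 CPM with TGFB2 (SD, n = 2), and was the 1 of 9 protease loci called there (log2 -2.67 ± 0.27, adjusted p = 0.00012, and -2.85 ± 0.27, adjusted p = 6e-05, edgeR). In mt its log2 values were -2.73 and -2.75 (adjusted p = 8.7e-05 and 7e-05, edgeR). Its level was 76.9 ± 4.08 CPM with BMP2 in wt.

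In the nuclear complex, Rbpjl, a relative of RBPJ known as a pancreatic transcription factor that does not bind the Notch intracellular part, rose from 0.405 and 0.139 CPM in wt vehicle to 6.07 and 10.2 CPM with TGFB1 and 6.07 and 9.98 CPM with TGFB2. The fold was 30.6 (log2 4.93 ± 0.61, adjusted p = 0.00031) and 30.1 (log2 4.91 ± 0.61, adjusted p = 0.00028, edgeR). In mt it rose from 1.74 and 0.538 CPM to 13.4 and 18.8 CPM with TGFB1. Of the 20 loci of this group it was the only one called higher in all 4 unblocked TGFB comparisons, in each of which 1 locus was called higher.

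Among genes of turnover, Fbxw7, the ubiquitin ligase subunit that marks the Notch intracellular part for destruction, rose from 18.2 and 17.6 CPM to 68.9 and 69.9 CPM with TGFB1 and 76.5 and 71.9 CPM with TGFB2 in wt. The fold was 3.88 (log2 1.95 ± 0.18, adjusted p = 8e-05) and 4.15 (log2 2.05 ± 0.18, adjusted p = 4.6e-05, edgeR). It was also higher in mt than wt over the 4 treatments (1.74-fold, log2 0.80 ± 0.09, adjusted p = 0.00010, edgeR). Dtx4, a Deltex ubiquitin ligase, was the 1 pathway locus called with BMP2: in mt it fell from 33.8 and 35.7 CPM to 13.6 and 12.6 CPM (log2 -1.41 ± 0.18, adjusted p = 0.019, edgeR), a call lost without any 1 of the 4 libraries compared, both mt vehicle and both mt BMP2 (adjusted p 0.11 to 0.26, edgeR). Dtx3, a relative of it, was lower in mt over the treatments (log2 -0.72 ± 0.10, adjusted p = 0.00052, edgeR).

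Of the other target genes, Hey2, the third Hey-family repressor, was 2.28-fold higher in mt over the 4 treatments (log2 1.19 ± 0.19, adjusted p = 0.0012, edgeR). It read 4.36 and 2.36 CPM in wt vehicle and 7.36 and 8.18 CPM in mt vehicle, then 10.4 and 6.23 CPM with TGFB2 in wt, a rise past the threshold (log2 1.31 ± 0.38, adjusted p = 0.029, edgeR) but not without wt TGFB2 replicate 1 (adjusted p = 0.24). Nrarp, a feedback inhibitor induced by Notch that was named after its values were seen, rose in wt from 2.20 and 1.73 CPM to 7.13 and 5.92 CPM with TGFB1 (log2 1.73 ± 0.44, adjusted p = 0.016, edgeR), a call lost without wt vehicle replicate 2 (adjusted p = 0.13). In mt Nrarp read 8.44 and 2.96 CPM with vehicle, 13.3 and 10.0 CPM with TGFB1, and 14.2 and 10.7 CPM with TGFB2, and neither ligand gave a call in the unblocked test. Gata2, an endothelial and blood transcription factor reported as a Notch target, fell with TGFB1 in wt from 21.9 and 17.9 CPM to 3.06 and 3.88 CPM (log2 -2.51 ± 0.40, adjusted p = 0.0012, edgeR) and was lower in mt vehicle, at 3.31 and 5.11 CPM (log2 -2.23 ± 0.40, adjusted p = 0.011, and 0.10 without mt vehicle replicate 1, edgeR). With BMP2 in mt it read 23.2 and 18.6 CPM (log2 2.29 ± 0.40, adjusted p = 0.090, blocked 0.0073, edgeR).

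Neurl1a, a ubiquitin ligase that acts on Notch ligands, was higher in mt than wt vehicle, at 5.96 and 4.41 CPM against 1.71 and 1.70 CPM (log2 1.60 ± 0.35, adjusted p = 0.028, edgeR), and fell with TGFB1 in mt to 0.881 and 0.953 CPM (log2 -2.48 ± 0.37, adjusted p = 0.0010, edgeR). Ccnd1, the G1 cyclin D1, was higher in mt than in wt vehicle, at 475 and 239 CPM against 91.9 and 76.2 CPM (log2 2.09 ± 0.29, adjusted p = 0.0025, edgeR). It fell in mt to 42.0 and 33.7 CPM with TGFB1 and 20.7 and 24.8 CPM with TGFB2. Without wt vehicle replicate 2 the line calls in vehicle were lost for Neurl1a (adjusted p = 0.21) and Ccnd1 (adjusted p = 0.057, edgeR).

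**Figure D5:**
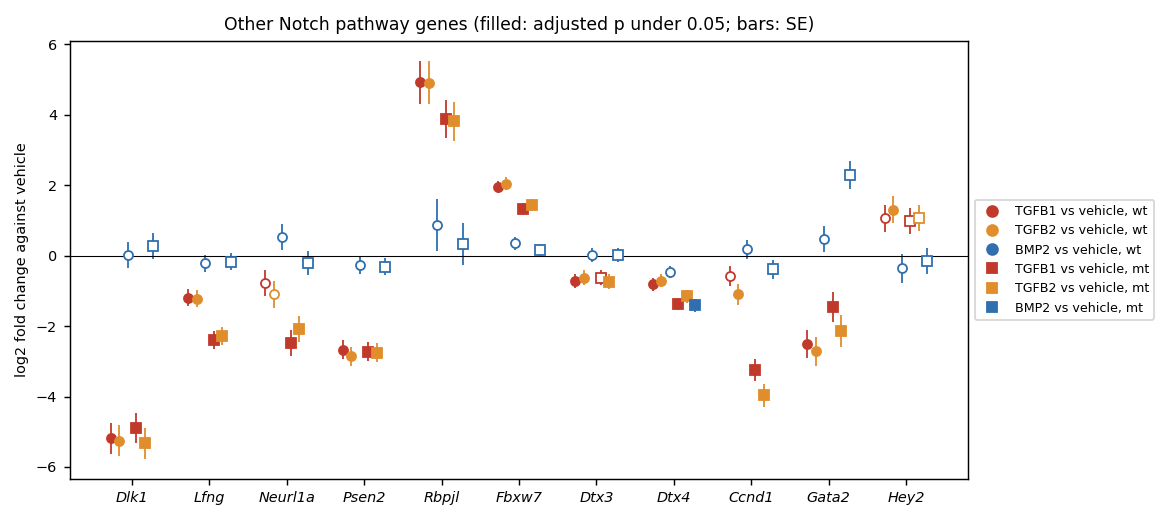
Log2 fold change against vehicle with SE bars for 11 other Notch pathway genes, by ligand (colour) and line (circle wt, square mt), filled where the adjusted p is under 0.05. Dlk1, Psen2 and Lfng lie below 0 and Rbpjl and Fbxw7 above 0 with both TGFB ligands in both lines, and Dtx4 in mt is the one filled BMP2 point.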

How the data were processed

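The authors deposited 2 tables, 1 per replicate number, each with counts (raw reads per gene entry) and RPM, which equal the reads over the column total times 1000000. The submitters' processing notes name TopHat, TopHat2 and mm9; the sources used here name no counting program, gene models or strand setting. Libraries were made without fragmentation, per the labels' protocols, which can bias coverage along long transcripts such as the receptors. The replicate 2 table also has 2 rows without a gene name, left out here: 1 holds the column totals and 1 a lone number.

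The tests used edgeR 4.0.16 under R 4.3.3: low counts were removed with filterByExpr, libraries scaled by TMM, and a robust quasi-likelihood fit made of 8 group means with 8 residual degrees of freedom, followed by Benjamini-Hochberg adjustment over 16835 genes at 0.05. Each SE was derived from the F statistic and the fold change. CPM are TMM-scaled. Counting intervals are at 95% and, like the floor of 3 reads, cover counting error only. The unblocked test was also run on simulated counts drawn without any replicate effect. That run does not bear on the pairing by replicate number described next.

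Replicate numbers pair the samples: after group means were removed, same-numbered libraries correlated above 0.1 in 28 of 28 pairs of groups (0.16 to 0.76, median 0.51). The blocked fit adds the number as a term and lowered the biological coefficient of variation from 0.274 to 0.17. Alternatives were RLE size factors, no filter, the block, DESeq2 1.42.0, a fit of only those groups that are compared, leaving out single libraries, and the 4 mt replicate 1 libraries left out.

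The 10 genes and all lists were chosen with earlier results of these data known. Named beside them are Tgfbr3, up to 4 called pathway genes with the smallest p per comparison, and the 3 genes most like each of the 3 most variable genes; Nrarp was added after its values were seen.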

Additional observations from a re-analysis of the deposited data

Results flagged for a closer look

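Ccnd1, which encodes cyclin D1, is listed for a closer look because its response to TGFB2 differed between the lines by a test of the difference itself. The mt response was lower than the wt response by a log2 of -2.87 ± 0.41 (adjusted p = 0.041, blocked 0.0027, edgeR). Its level went from 357 ± 167 to 22.8 ± 2.86 CPM (SD, n = 2) in mt and from 84.0 ± 11.1 to 39.1 ± 5.30 CPM in wt. Both mt libraries and both wt libraries of TGFB2 lay below vehicle. The call held without mt vehicle replicate 2 (adjusted p = 0.0064) and was lost without any other 1 of the 8 libraries compared, with an adjusted p of up to 0.26 without wt vehicle replicate 2, and in a fit of only the groups compared it was 0.32. Without the 4 mt replicate 1 libraries, of which the vehicle library read 475 CPM against 239 CPM in replicate 2, the value was -2.17 (adjusted p = 0.60, edgeR).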

How the results depend on the processing

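Of 1705 recomputed values of the 10 genes (150 values under the alternatives), 1585 kept their direction and side of the threshold, 62 passed it newly, 58 no longer passed it and none reversed; of 1481 values called in neither fit, 162 changed sign. Numbers of the 10 genes called are given next. Without the low-count filter they were 0 for TGFB1 and 0 for TGFB2 against vehicle in mt, 1 for BMP2 in mt (Hes1) and 1 for TGFB against BMP2 in wt (Jag1). With the replicate block they were 6 for TGFB1 in mt, 6 for TGFB2 in mt, 1 for BMP2 in mt, 5 for TGFB against BMP2 in wt, 5 in mt, 2 for mt against wt in vehicle and 3 over the treatments. DESeq2 gave 1 for BMP2 in wt, 1 each for TGFB1, TGFB2 and BMP2 in mt, 4 for TGFB against BMP2 in mt, 2 for mt against wt in vehicle and 2 over the treatments. With only the groups compared they were 0 for TGFB1 and 0 for TGFB2 in mt and 3 for TGFB against BMP2 in mt. RLE size factors gave 1 for TGFB against BMP2 in mt (Heyl). Without the 4 mt replicate 1 libraries that count was 1 (Jag2), and that of mt against wt over the treatments was 0. The cause of these shifts was not tested.

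Leaving out each library in turn gave 2 to 3 genes for TGFB1 in wt, 2 to 3 for TGFB2 in wt, 0 to 4 for TGFB1 in mt, 0 to 4 for TGFB2 in mt, 1 to 2 for TGFB against BMP2 in wt, 0 to 1 in mt, 0 to 2 for mt against wt in vehicle and 1 to 2 over the treatments. An arm left with 1 library is assumed to vary like the other groups. For mt against wt over the treatments all groups are compared, so the fit of compared groups alone is the fit reported. Notch4, Dll1, Hey1 and Heyl, with at most 33 reads a library, are limited by depth.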
